A study of Penicillium oxalicum with 6 samples.

Results

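The genes described are the 41 gene IDs numbered POX09330 to POX09370 of the filamentous fungus Penicillium oxalicum, out of 9834 IDs with values. The range was taken by number, and it was chosen because falls in the POX06509 mutant had been seen there. The strain difference of these genes is therefore a description, and the calls given below are not an independent test of it. RNA came from mycelium grown for 24 h at 28 °C in 100 mL of medium with 1% Avicel, a microcrystalline cellulose that fungi break down with secreted cellulases, in a shaker at 180 rpm. About 1 g of hyphae was used for each culture. There were 3 libraries of the strain labelled MuPOX06509, read as the POX06509 deletion named in the title of the series, and 3 of the strain labelled Ku70. Ku70 takes part in joining broken DNA ends, and fungi that lack it are widely used as hosts for deleting chosen genes. The growth text of all 6 libraries speaks of MuKu70 spores, and the labels do not say whether MuPOX06509 was made in that strain, from how many clones, or whether the libraries F, S and T of a strain were separate cultures. The spread between libraries may thus be technical, and any other difference between the strains cannot be told apart from the loss of POX06509. The 3 values of a strain are given below in the order of libraries F, S and T. POX06509 had 0, 0 and 1 counts in MuPOX06509 and 1405, 2580 and 1851 counts in Ku70, as the labels say. Libraries held 14605326 to 15219424 counts.

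Penicillium oxalicum lives on plant matter and secretes mixtures of cellulases and xylanases, whose genes are switched on by transcription factors in the presence of cellulose. In filamentous fungi, genes of a shared metabolic pathway often lie next to each other on a chromosome and are switched together. What the 41 genes encode, and whether their numbers follow the order on the chromosome, could not be taken from the sources used here: none of the 41 IDs equals a locus tag, symbol or synonym in the reference table for assembly ASM172317v3. The genes are therefore described by ID, level and position in the numbering.

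By the calls, the falls did not form a single block of consecutive numbers. Of the 41 genes 33 had enough counts to be tested, and 10 of these were called lower in MuPOX06509 by edgeR's quasi-likelihood test across all genes (adjusted p under 0.05), against 7.27% of the 8336 genes tested. They lay in 4 separate runs of consecutive numbers: POX09343 to POX09346, POX09352 alone, POX09354 to POX09356, and POX09360 with POX09361. A further 2 genes, POX09340 and POX09341, were called higher, against 5.33% of the genes tested. The other 21 tested genes were not called. With the range chosen on this contrast, nothing is read from the counts. If genes not called but with a log2 fold change below 0 are joined in, and numbers with too few counts are passed over, POX09343 to POX09356 becomes 1 stretch of 14 numbers, with 10 genes tested and 8 called lower. The gene after it, POX09357, had a fitted change above 0. The extent of this looser stretch rested on single libraries. Without MuPOX06509 library F it ran from POX09343 to POX09363, 21 numbers with 17 genes tested, and took in all 10 genes called lower with all libraries. Without MuPOX06509 library S or Ku70 library F the longest such stretch was POX09352 to POX09356, with 5 genes tested. The median log2 fold change of the 33 tested members was -0.23, beside 0.01 over all genes tested, and 20 of the 33 lay below 0, beside 48.5% of all genes tested.

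**Figure D1:**
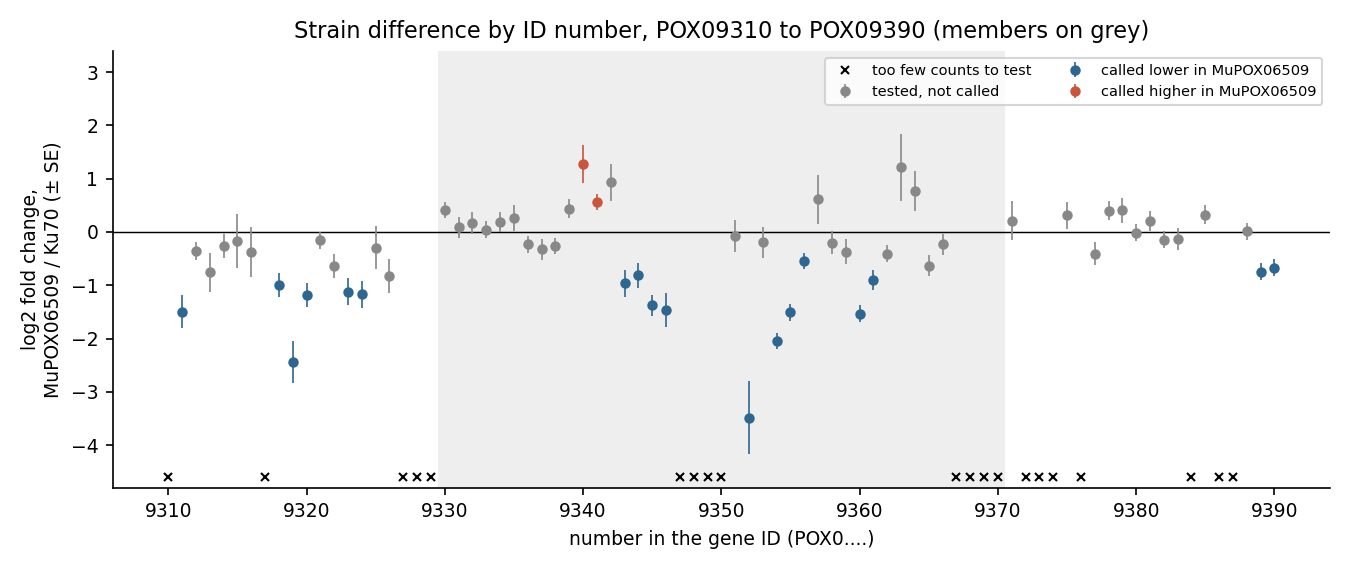
Log2 fold change of MuPOX06509 over Ku70 (points, edgeR, with an approximate SE as bars) against the number in the gene ID for POX09310 to POX09390, the 41 members on grey; crosses mark genes with too few counts to be tested. Called falls lie in 4 runs within the grey area, 6 more lie among the 20 numbers before it and 2 among the 20 after it. Over all tested genes 7.27% were called lower.

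The 41 genes covered almost the whole range of transcript levels in this fungus. POX09358 was the most abundant transcript of all 9834 genes, ranking 1 by FPKM (fragments scaled to gene length and library size) and by count in each of the 6 libraries. It took 2.0% to 2.90% of all counts of a library, and 53.0% to 59.1% of the counts of the 41 genes. POX09361 ranked 11 of all genes by mean FPKM, POX09365 ranked 68, POX09357 ranked 122 and POX09363 ranked 320. Each of the 13 genes from POX09354 to POX09366 had a mean of at least 49.6 FPKM over the 6 libraries. Next to them in the numbering lay near-silent genes: POX09346 to POX09350 and POX09353 averaged 1.59 FPKM or less, and POX09367 to POX09370 had at most 4.32 FPKM in any library. Together the 41 genes held 4.96%, 3.5% and 3.38% of the counts in MuPOX06509 and 5.37%, 4.65% and 4.29% in Ku70. The share in MuPOX06509 library F was above that in Ku70 libraries S and T, so the groups overlapped.

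**Figure D2:**
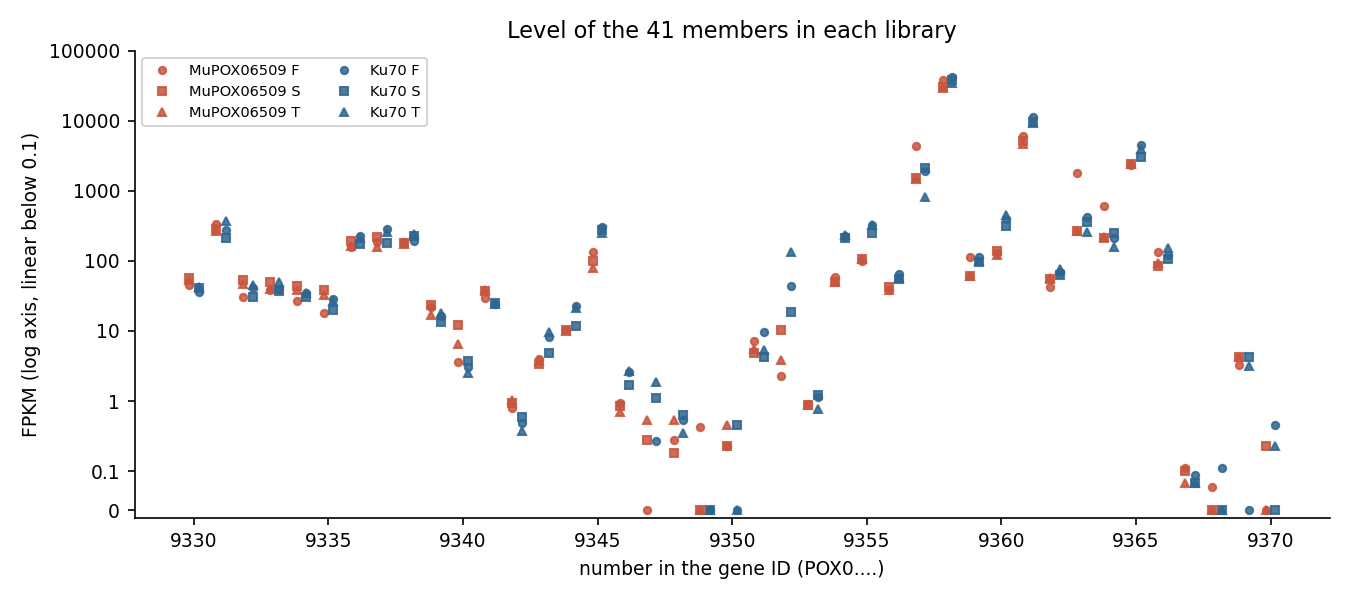
FPKM of each of the 41 genes (log axis, linear below 0.1) against the number in the gene ID, with 1 point per library, MuPOX06509 in red and Ku70 in blue. POX09358 stands highest, near-silent genes lie at POX09346 to POX09350 and POX09367 to POX09370, and the colours part at the genes called lower.

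The first run of falls held genes of very different levels. POX09343 had 4.03, 3.41 and 3.77 FPKM in MuPOX06509, from 68 to 79 counts, and 8.10, 4.93 and 9.59 FPKM in Ku70, from 99 to 195 counts. POX09344 had 10.3, 10.3 and 10.2 FPKM in the former and 22.8, 11.6 and 21.4 FPKM in the latter. In both genes Ku70 library S came close to the MuPOX06509 libraries, without overlap. The fitted log2 fold change was -0.97 ± 0.25 (SE) for POX09343 and -0.82 ± 0.23 (SE) for POX09344.

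POX09345 was the abundant gene of the run and the shortest of the 32 members whose effective length could be worked out from count and FPKM, with 288 bases. Its FPKM was 133, 99.1 and 80.1 in MuPOX06509, from 562, 425 and 347 counts, and 302, 275 and 251 in Ku70, from 1322, 1189 and 1098 counts. The mean was 104.2 ± 27.0 FPKM (SD, n = 3) in MuPOX06509 and 275.9 ± 25.3 FPKM (SD, n = 3) in Ku70. This is a log2 fold change of -1.37 ± 0.20 (SE). POX09346 was rare, with 12, 11 and 9 counts in MuPOX06509 and 35, 22 and 36 in Ku70, and a log2 fold change of -1.46 ± 0.32 (SE). All MuPOX06509 libraries lay below all Ku70 libraries in each gene of the run. The summed count of the 4 genes was 736.0 ± 111.0 (SD, n = 3) per MuPOX06509 library and 1769 ± 223 (SD, n = 3) per Ku70 library.

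Leaving out 1 library, which leaves fewer libraries to test with, ended 3 of these 4 calls. POX09343 was no longer called without MuPOX06509 library S (log2 fold change -0.90), MuPOX06509 library T (-0.97), Ku70 library F (-0.91) or Ku70 library T (-0.79). POX09344 was called in the fit without Ku70 library S (-1.04) and in none of the other 5, where its change was -0.82 without MuPOX06509 library F or S, -0.81 without MuPOX06509 library T, -0.65 without Ku70 library F and -0.73 without Ku70 library T. POX09346 lost its call without MuPOX06509 library T (-1.34) and without Ku70 library F or T (-1.37 in each). Some limma fits with all 6 libraries did not call these 3 genes either. Of the 14 alternative fits, POX09343 was called in 7, POX09344 in 5 and POX09346 in 10. POX09345 stayed called in each of the 14.

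The run was followed by numbers with hardly any RNA. Between POX09346 and POX09352, the genes POX09347 to POX09350 were not tested. POX09347 had 0, 1 and 2 counts in MuPOX06509 and 1, 4 and 7 in Ku70, so the groups overlapped. POX09348 had 2 to 7 counts per library, POX09350 had 0 to 2, and POX09349 had a single count, in MuPOX06509 library F. A count of 0 allows up to 3 counts, for counting error only.

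POX09351 overlapped between the strains, with 4.91 to 7.30 FPKM in MuPOX06509 and 4.32 to 9.67 FPKM in Ku70. POX09352 next to it had the largest change among the members. It had 2.26, 10.5 and 3.8 FPKM in MuPOX06509, from 63, 298 and 109 counts. In Ku70 it had 43.4, 18.5 and 132 FPKM, from 1259, 530 and 3832 counts. The libraries of each strain were far apart, by 4.65 times in MuPOX06509 and 7.15 times in Ku70, though the groups did not overlap. The fitted log2 fold change was -3.49 ± 0.69 (SE). It was -4.34 without MuPOX06509 library S and -2.47 without Ku70 library T, and the gene was called in each of the 14 alternative fits. POX09353 beside it stayed near 1 FPKM, with 23 counts in each MuPOX06509 library and 20 to 32 in the Ku70 libraries.

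In the run POX09354 to POX09356 the libraries of a strain were close together. POX09354 had 58.6, 50.8 and 49.8 FPKM in MuPOX06509, from 909, 801 and 793 counts. In Ku70 it had 228, 213 and 234 FPKM, from 3681, 3380 and 3762 counts. The MuPOX06509 mean was thus 23.6% of the Ku70 mean, and the log2 fold change was -2.05 ± 0.15 (SE). POX09355 had 98.3, 105.9 and 106.7 FPKM in MuPOX06509 and 328, 251 and 327 FPKM in Ku70, a log2 fold change of -1.51 ± 0.16 (SE). The lowest Ku70 value of POX09355 was again that of library S, and still far above MuPOX06509. POX09356 had 38.6, 42.4 and 38.2 FPKM in the former libraries and 64.9, 55.5 and 57.7 FPKM in the latter, a log2 fold change of -0.55 ± 0.14 (SE). The groups did not overlap in any of the 3 genes, and the size of the fall became smaller with each number of the run. POX09354 and POX09355 were called in all 14 alternative fits. POX09356 lost its call without MuPOX06509 library S (-0.59) or T (-0.52) and without Ku70 library F (-0.48) or T (-0.59). It was also not called by limma with a pseudocount of 0.1 (-0.58).

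POX09360 and POX09361 were both called lower, and POX09361 is among the most abundant transcripts of the fungus. POX09360 had 131, 138 and 123 FPKM in MuPOX06509, from 1695, 1824 and 1642 counts, and 402, 319 and 446 FPKM in Ku70, from 5426, 4248 and 6010 counts. Its log2 fold change was -1.54 ± 0.16 (SE), about that of POX09355, and it was called in all 14 alternative fits. POX09361 had 6034, 5189 and 4658 FPKM in MuPOX06509, from 65900, 57640 and 52273 counts. In Ku70 it had 11394, 9713 and 9207 FPKM, from 129362, 108732 and 104327 counts. It ranked 5 or 6 by FPKM in each Ku70 library and 17 to 23 in each MuPOX06509 library. The log2 fold change of POX09361 was -0.90 ± 0.19 (SE). Its call was lost without MuPOX06509 library S (-0.89) or T (-0.82) and without Ku70 library F (-0.81).

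**Figure D3:**
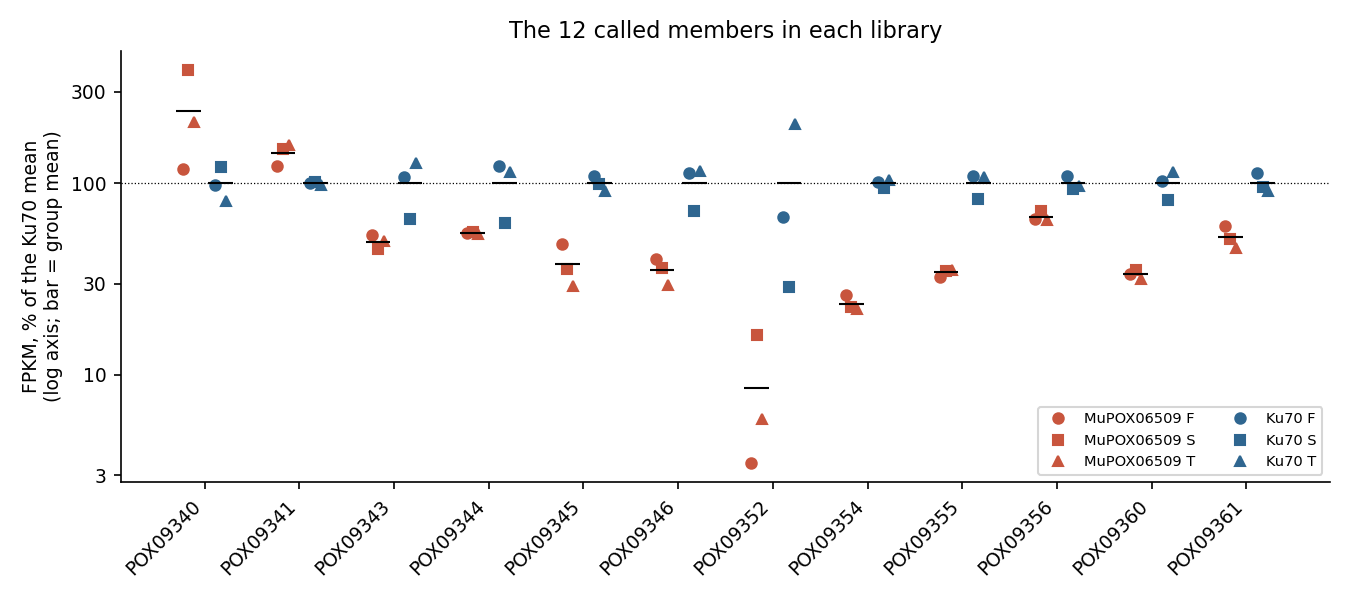
FPKM of the 12 called genes in each library as a percentage of the Ku70 mean of that gene (log axis), with 1 point per library, MuPOX06509 in red, Ku70 in blue and bars at the group means. In each of the 10 genes called lower the red points lie below all blue points, with the widest scatter in POX09352, and in POX09340 red and blue overlap.

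Of the 33 tested members 13 had all MuPOX06509 libraries below all Ku70 libraries, beside 16.3% of all tested genes. They were the 10 genes called lower, where the call itself makes such a gap likely, and 3 genes not called, POX09338, POX09362 and POX09365. With the range chosen on this contrast, nothing is read from that count. The count of lower calls was 5 without MuPOX06509 library T or Ku70 library F, and 6 without MuPOX06509 library S or Ku70 library T. In these 4 fits the share of all tested genes called lower fell as well, to 3.27% to 4.9%, beside 7.27% with all libraries. The count was 10 without MuPOX06509 library F and 11 without Ku70 library S, beside 7.22% and 13.4% of all tested genes. Fits without a library have fewer libraries to test with. Whether these members depended on particular libraries more than other genes did was not tested. The genes POX09345, POX09352, POX09354, POX09355 and POX09360 were called lower in all 14 alternative fits. The longest run of consecutive numbers called lower shrank from 4 to 2 without MuPOX06509 library S or T and without Ku70 library F or T.

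The 2 genes called higher stood just before the first run of falls. POX09340 is by far the longest member, with an effective length of 22717 bases, and had few fragments per length. It had 3.66, 12.04 and 6.49 FPKM in MuPOX06509, from 1220, 4080 and 2221 counts, and 3.05, 3.75 and 2.50 FPKM in Ku70. MuPOX06509 library F lay below Ku70 library S, so the groups overlapped, and the log2 fold change was 1.28 ± 0.35 (SE). Its counts in Ku70 libraries S and T were fractional, at 1278.99 and 863.95, that is, some reads were divided between genes. How many reads were divided cannot be told from these counts. POX09341 had 29.98, 36.8 and 38.9 FPKM in MuPOX06509 and 24.4, 24.8 and 24.0 FPKM in Ku70. Its groups did not overlap, and the log2 fold change was 0.56 ± 0.15 (SE). Neither call held in all fits, and neither was made in any limma fit. POX09340 was not called without MuPOX06509 library S (0.74) or without Ku70 library F (1.25) or T (1.12). POX09341 was not called without MuPOX06509 library S (0.53) or T (0.48) or without Ku70 library F (0.55) or T (0.52). POX09342, between them and the run of falls, had only 14, 17 and 19 counts in MuPOX06509 and 9, 11 and 7 in Ku70. Its log2 fold change was 0.94 ± 0.35 (SE), and it was not called. POX09330, POX09341 and POX09342 were the only tested members with all MuPOX06509 libraries above all Ku70 libraries. They were 3 of 33, beside 14.8% of all tested genes.

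The most abundant transcript lay among the falls without being called itself. POX09358 had 38676, 30010 and 29555 FPKM in MuPOX06509, from 383300, 302527 and 300958 counts. In Ku70 it had 42864, 38143 and 34201 FPKM, from 441635, 387501 and 351680 counts. MuPOX06509 library F lay between the Ku70 libraries, and the log2 fold change was -0.20 ± 0.21 (SE). POX09365, also abundant, had 2349, 2408 and 2414 FPKM in MuPOX06509 and 4461, 3001 and 3936 FPKM in Ku70. Its groups did not overlap, and its log2 fold change of -0.63 ± 0.19 (SE) missed the threshold, with an edgeR adjusted p of 0.0539. It was called in 5 of the 14 alternative fits, among them the fit without Ku70 library S (-0.75).

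A second pattern in the range was a single library that stood apart. POX09357 had 4420, 1534 and 1466 FPKM in MuPOX06509, from 137365, 48504 and 46822 counts, and 1950, 2146 and 817 FPKM in Ku70. POX09363 had 1815, 268 and 269 FPKM in MuPOX06509 and 417, 358 and 263 FPKM in Ku70. POX09364 had 609, 216 and 220 FPKM in the former and 213, 251 and 158 FPKM in the latter. In all 3 genes MuPOX06509 library F was the highest of the 6 libraries, libraries S and T were close to each other, and Ku70 library T was the lowest Ku70 library. Library F was 2.95, 6.77 and 2.80 times the mean of MuPOX06509 libraries S and T in POX09357, POX09363 and POX09364. These were the 3 members with library F at least 2 times as high as both S and T, which 1.22% of all tested genes were. POX09363 and POX09364 were singled out after their values were seen.

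None of these 3 genes was called, and their fitted change rested on that library. The log2 fold change with and without MuPOX06509 library F was 0.62 ± 0.46 (SE) and -0.11 ± 0.37 (SE) for POX09357, 1.21 ± 0.62 (SE) and -0.35 ± 0.21 (SE) for POX09363, and 0.77 ± 0.38 (SE) and 0.09 ± 0.22 (SE) for POX09364. The first 2 thus turned in direction. POX09359 had 115, 61.9 and 60.3 FPKM in MuPOX06509 and 114, 98.0 and 100.9 FPKM in Ku70. Its library F lay at the Ku70 level and libraries S and T below it, and it was called lower in the fit without MuPOX06509 library F (-0.74), and in none of the other 13. The other members near them did not share the high value of library F to this extent, though several were higher in it. Library F was 1.30 and 1.88 times the mean of libraries S and T in POX09358 and POX09359. It was 1.00, 1.23 and 0.77 times that mean in POX09360 to POX09362, and 0.97 and 1.53 times in POX09365 and POX09366.

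**Figure D4:**
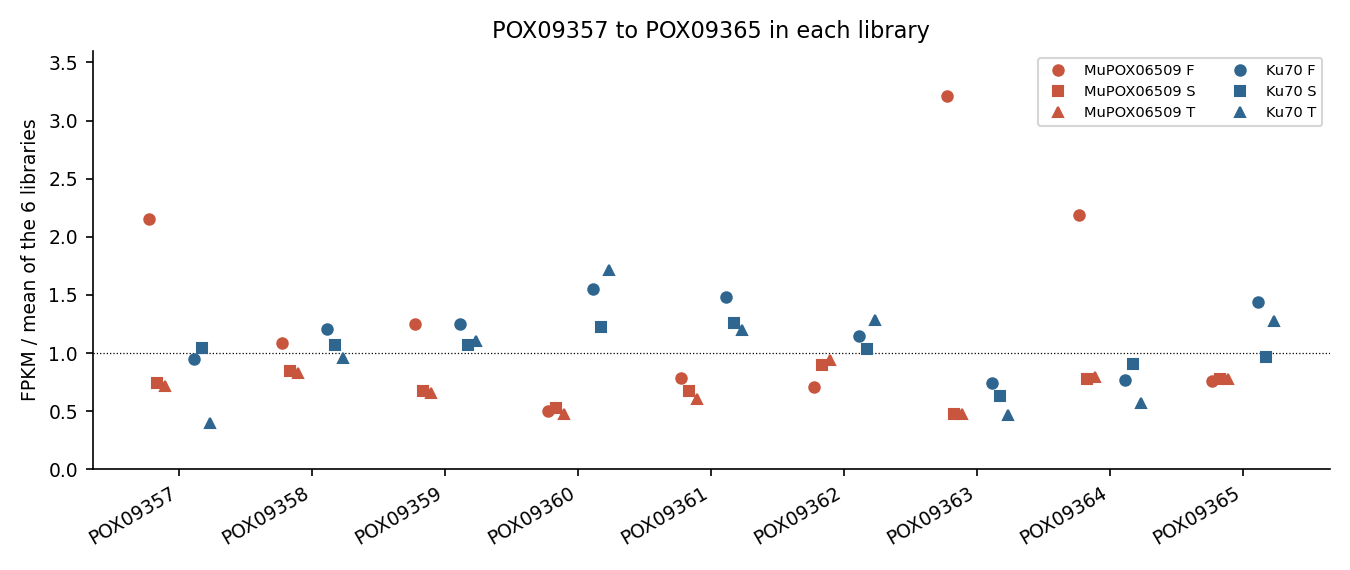
FPKM of POX09357 to POX09365 in each library divided by the mean of the 6 libraries of that gene, MuPOX06509 in red and Ku70 in blue. MuPOX06509 library F (red circles) stands far above the other libraries in POX09357, POX09363 and POX09364. All red points lie below all blue ones in POX09360 and POX09361, called lower, and in POX09362 and POX09365, not called.

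The members at the start of the range differed little between the strains. The 10 genes POX09330 to POX09339 were all tested, none was called, and their log2 fold changes ran from -0.33 to 0.44, with 13.4 to 366 FPKM in the single libraries. POX09330 had 46.0, 56.5 and 52.8 FPKM in MuPOX06509 and 35.8, 40.6 and 43.0 FPKM in Ku70, without overlap. POX09338 had 172 to 184 FPKM in MuPOX06509 and 192 to 240 FPKM in Ku70, without overlap in the other direction. The remaining 8 of these genes overlapped. Of POX09333, as of POX09340, some counts were fractional. At the end of the range, POX09362 had 42.9 to 56.9 FPKM in MuPOX06509 and 62.5 to 77.7 FPKM in Ku70, and POX09366 had 84.7 to 136 FPKM and 105 to 153 FPKM. The last 4 numbers, POX09367 to POX09370, had at most 6 counts in any library and were not tested. Over the 8 untested members the summed count of all 6 libraries was 1 to 29.

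Falls were not limited to the chosen range. Of the 20 numbers before it, POX09310 to POX09329, 15 genes were tested. All 15 had a log2 fold change below 0, beside 48.5% of all tested genes, from -2.43 to -0.16 with a median of -0.76. Of these, 6 were called lower, beside 7.27% of all tested genes: POX09311, POX09318, POX09319, POX09320, POX09323 and POX09324. POX09320 had a mean of 33.0 FPKM in Ku70, and the other 5 had 7.59 FPKM or less. The strongest change was that of POX09319, with 2.76 ± 0.70 FPKM (SD, n = 3) in Ku70, 0.493 ± 0.300 FPKM (SD, n = 3) in MuPOX06509 and a log2 fold change of -2.43 ± 0.39 (SE). Between POX09324 and POX09330 lay POX09325 and POX09326, with log2 fold changes of -0.30 and -0.83 and not called, and then 3 numbers, POX09327 to POX09329, with a single count over all libraries. The lower calls before the range and the first in it, POX09343, were thus not adjacent in the numbering. Between them also lay POX09330 to POX09339 and POX09342, not called, and POX09340 and POX09341, called higher. Of the 20 numbers after the range 13 were tested and 2, POX09389 and POX09390, were called lower, with a median log2 fold change of 0.02 over the 13. The lower calls among these 40 flanking numbers were 8, beside 7.27% of all tested genes, and 5 without Ku70 library T, beside 3.27%. The flanks were chosen with earlier results known, so nothing is read from these counts.

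Within a strain, the typical member varied about as much between libraries as other genes did. The median ratio of the highest to the lowest FPKM was 1.32 in MuPOX06509 and 1.40 in Ku70 over the 33 tested members, beside 1.31 and 1.35 over all tested genes. In MuPOX06509 the ratio reached 2 in 6 members, POX09335, POX09340, POX09352, POX09357, POX09363 and POX09364, beside 7.19% of all tested genes. In Ku70 it reached 2 in 3 members, POX09351, POX09352 and POX09357, beside 8.15% of all tested genes. POX09352 and POX09357 varied in both strains, and not in the same libraries: among the MuPOX06509 libraries POX09352 was highest in S and POX09357 in F, and among the Ku70 libraries POX09352 was highest in T, where POX09357 was lowest. Ku70 library S was the lowest Ku70 library in 21 of the 33 members, beside 50.2% of all tested genes. Without that library 11 members were called lower, beside 13.4% of all tested genes.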

How the data were processed

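Each deposited table gave 1 expected count and 1 FPKM value per gene ID, per the file headers. Expected counts are estimates that divide a read fitting several genes between them, and FPKM was scaled by the authors to gene length and library size. BWA 0.7.10-r789, Bowtie2 2.1.0, RSEM 1.2.12 and DESeq2 were used, per the submitters' processing notes, which give no roles. The strand setting, annotation and genome build were not given in the sources used here, and overlapping genes cannot be separated.

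The members and the flanking numbers were chosen with earlier results of these data known. Expected counts were rounded and tested over all genes with edgeR 4.0.16 in R 4.3.3 (TMM, filterByExpr with a minimum count of 10, quasi-likelihood F test, two-sided, Benjamini-Hochberg adjusted p under 0.05), with the strain as the only term and all 6 libraries. The SE was approximated as the log2 fold change over the square root of F. Effective length was the median of count over FPKM and library total, from libraries with at least 20 counts of the gene. Genes given in full by rule were the called members, the neighbours of the longest run of falls and the 3 other members with the highest mean FPKM. The values of POX09330, POX09359, POX09363 and POX09364 are printed as well, outside that rule. The same fit recovered 98 of 100 genes changed 4-fold and 76 of 100 changed 2-fold in counts simulated for this contrast on 8336 genes. Those counts were drawn independently, with no library made to stand apart, so recovery in the real libraries may differ. The alternatives were edgeR without the filter, with DESeq2 size factors, with the letter as a block and without each library, DESeq2 1.42.0, and limma 3.58.1 on log2(FPKM + 1), with genes at FPKM of at least 1 in 3 libraries, with pseudocounts of 0.1 and 5 and with no filter.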

Additional observations from a re-analysis of the deposited data

How the results depend on the processing

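The genes POX09345, POX09352, POX09354, POX09355 and POX09360 were called lower in all 14 alternative fits. The count of members called lower, 10 in the edgeR fit, was 5 to 11 when 1 library was left out, and 7 to 11 in the other fits. The count called higher, 2 in that fit, was 0 to 2 when 1 library was left out and 0 in all 4 limma fits, on log2(FPKM + 1), with pseudocounts of 0.1 and 5, and with no filter on FPKM. Of all tested genes, 7.27% were called lower with all libraries, 3.27% to 13.4% with 1 library left out and 4.19% to 12.9% in the other fits. The shares called higher were 5.33%, 3.45% to 12.5% and 3.75% to 10.8%. The longest run of numbers called lower was 4, 2 to 4 when 1 library was left out, 2 in limma with a pseudocount of 0.1, and 10 tested genes when any log2 fold change below 0 counted and untested numbers did not end a run. By that last rule, in fits added after seeing the data, the run had 17 tested genes without MuPOX06509 library F, 5 without MuPOX06509 library S or Ku70 library F, 6 without the filter on low values in edgeR or limma, and 9 to 11 in the other fits. Lower calls among the flanking numbers were 8, and 5 to 11 when 1 library was left out. The fitted change of POX09357 was 0.62, and -0.11 to 0.90 when 1 library was left out. The lowest, and the only one below 0, was without MuPOX06509 library F. In no other alternative did any of the 16 tested genes given in full by rule change direction. Of all tested members 6 turned in at least 1 fit without a library, none of them called: POX09331, POX09332, POX09333, POX09351, POX09357 and POX09363. Fits without a library have fewer libraries to test with; other causes were not tested. Same-letter libraries of the 2 strains deviated together at r = 0.39 for F and 0.064 for S and T across 8336 genes, and F alone correlated best with its own letter, so the letters are not taken as pairs. With the letter as a replicate block, 11 members were lower, POX09365 being added, and 3 were higher, POX09364 being added, beside 12.9% and 10.8% of all tested genes called lower and higher in that fit; the longest run was 4 and 9 flanking genes were lower. Counts of at most 7 per library leave 8 members without a usable fold change.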
